A study of Homo sapiens with 6 samples.

Results

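NT5E encodes CD73, the cell-surface enzyme that makes adenosine from AMP, and it is described here with 9 other genes that make, sense or remove extracellular adenosine and the nucleotides it comes from. The 10 genes were taken by symbol from the 58884 gene identifiers of the count table. They were the ecto-nucleotidases NT5E, ENTPD1 and ENTPD2, the adenosine receptors ADORA1 and ADORA2B, the enzymes ADA and ADK, the transporter SLC29A1 and the nucleotide receptors P2RY2 and P2RX4. NT5E was picked because it had the largest fall in sgITPR3, so its difference is described without a test, whereas the other 9 were listed by function. The 6 libraries came from liver metastases of SW480, a long-established line of human colorectal cancer cells. Cells carrying a control guide RNA (sgCtrl, 3 libraries) or a guide RNA against the IP3 receptor gene ITPR3 (sgITPR3, 3 libraries) had been delivered to the liver by way of the portal circulation in NSG mice, whose immune system lacks functional T, B and NK cells, and tumour cells were recovered from the digested livers after depletion of mouse cells. Neither the age and sex of the mice, nor the guide sequence, nor whether each library came from its own mouse is stated in the labels, so the p-values cover no more than the spread among the 6 libraries, which may be technical.

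ATP and ADP that leave cells are broken down to AMP by enzymes such as CD39 (ENTPD1), and CD73 turns AMP into adenosine, which acts on G protein-coupled receptors that raise or lower cAMP. The signal ends when adenosine is deaminated by ADA or taken up through equilibrative transporters such as ENT1 (SLC29A1) and phosphorylated by ADK. In many carcinomas CD73 is studied because extracellular adenosine restrains immune cells. NSG mice lack most of the lymphocytes on which adenosine would act.

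Library totals were 19140055 to 23943797 counts, and levels are CPM, counts scaled to library size with TMM factors. Reads were tags from the 3' ends of transcripts, so a transcript gives about the same number of tags whatever its length, and CPM are not divided by length. ITPR3, the targeted gene, was at 107.5, 93.9 and 94.2 CPM under sgCtrl and at 39.4, 41.03 and 46.2 CPM under sgITPR3. The groups did not overlap, but a tag at the 3' end need not cover the edited site. The liver transcript ALB was at 33.8, 169.7 and 21.6 CPM in sgCtrl replicates 1 to 3 and at 231.6, 152.6 and 111.5 CPM in sgITPR3 replicates 1 to 3, so that sgCtrl replicate 2 lay within the sgITPR3 range. The summed level of 13 hepatocyte markers was 69.8 to 274 CPM in sgCtrl and 170.0 to 329 CPM in sgITPR3, with ALB the highest marker by group mean. Of the 9 hepatocyte markers tested APOA1 was called higher, and SERPINA1 went the other way, from 43.3 ± 3.86 to 13.9 ± 2.17 CPM (log2 fold change -1.64, edgeR adjusted p = 1.51e-07). The 4 erythroid genes HBA1, HBA2, HBB and ALAS2 summed to 0.587 to 1.34 CPM in sgCtrl and 4.84 to 6.39 CPM in sgITPR3. The higher sum came from HBA1 and HBA2 alone. HBA1 had 6, 3 and 1 counts in sgCtrl and 21, 44 and 19 in sgITPR3. HBA2 had 13, 21 and 10 against 89, 99 and 104 counts. HBB had 1, 2 and 0 counts in sgCtrl and 0, 0 and 1 in sgITPR3. ALAS2 had 0, 1 and 0 against 2, 1 and 0 counts. The 8 epithelial markers summed to 2410 to 2798 CPM in sgCtrl and 2025 to 2079 CPM in sgITPR3, most of it keratins and EPCAM. KRT19, KRT8 and EPCAM were called lower, whereas the intestinal genes VIL1 (3.18 ± 0.821 to 36.7 ± 1.19 CPM) and CDX2 (47.2 ± 4.18 to 59.8 ± 5.4 CPM) were called higher. The part of these differences in the results was not tested, other than by fits with the ALB level as a covariate. The edgeR quasi-likelihood test with Benjamini-Hochberg adjustment called 23.5% of 15804 tested genes at an adjusted p under 0.05, 11.9% lower and 11.6% higher in sgITPR3.

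NT5E (ENSG00000135318, GRCh38 chromosome 6, 85449584 to 85495791, plus strand) was at 113.4, 88.1 and 105.6 CPM under sgCtrl, which were 2109, 1773 and 1978 counts. In the sgITPR3 libraries it was at 8.12, 6.15 and 6.44 CPM, or 188, 152 and 125 counts. Every sgITPR3 library was far below every sgCtrl library, and the libraries of a group lay close together. The mean went from 102 ± 12.9 to 6.904 ± 1.06 CPM (SD, n = 3 each), which was 14.8-fold lower (log2 difference, that is log2 fold change, -3.89 with SE 0.121). Over the 13 other analyses that were run, this log2 fold change lay between -4.02 and -3.74, including -3.99 without sgCtrl replicate 2 and -3.74 with the ALB level as a covariate. Of the tested genes averaging 5 CPM or more it had the lowest log2 fold change, followed by PLAT (-3.53) and IL24 (-3.32). Below that level CCN4 (2.11 CPM on average under sgCtrl, 0 counts under sgITPR3) and ROBO4 (-4.05) had lower ones, and NT5E was rank 3 of all tested genes. No other annotated gene overlapped NT5E.

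**Figure D1:**
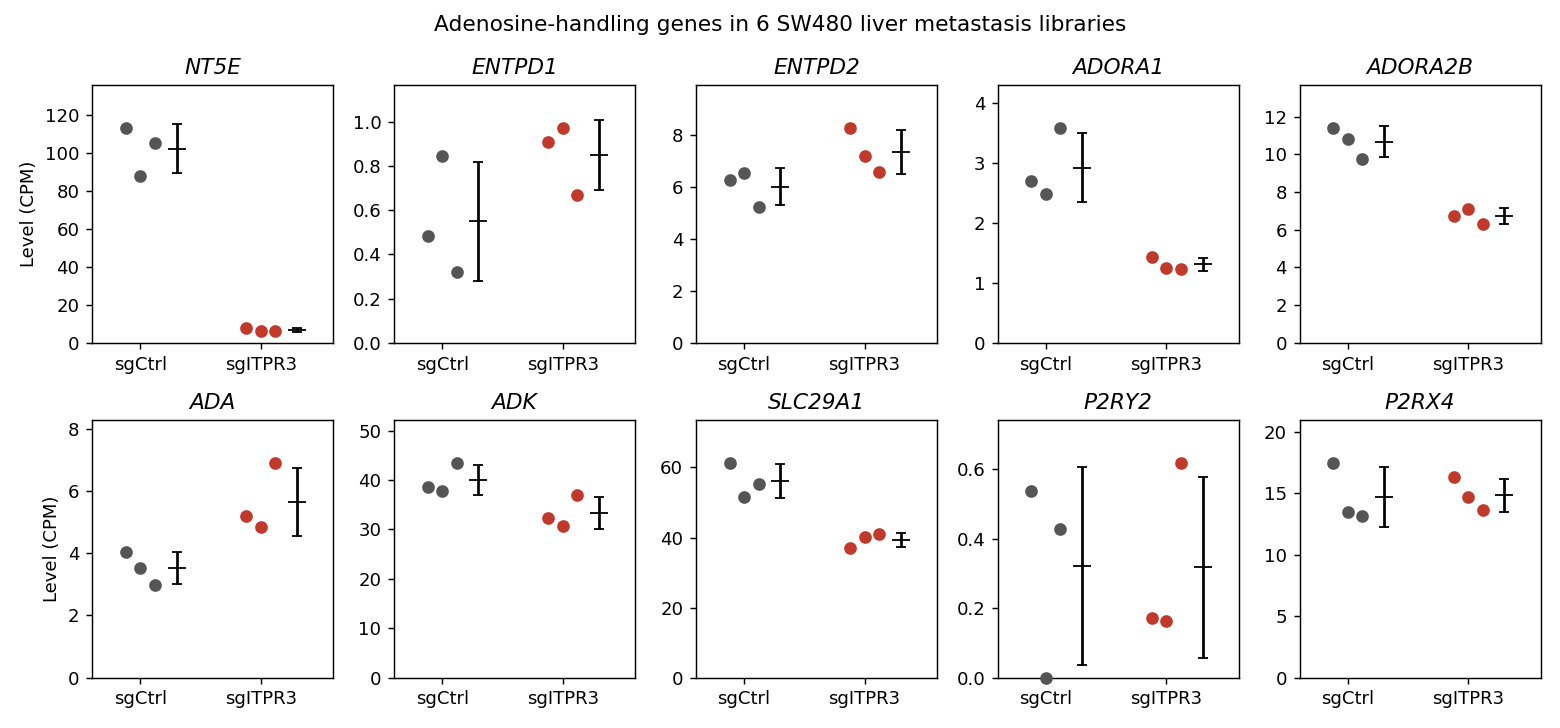
Level in CPM (linear axes from 0, one scale per gene) of the 10 genes in each library, with sgCtrl in grey and sgITPR3 in red. Each point is 1 library and the bar beside it is the mean ± SD of 3 libraries. NT5E, ADORA1, ADORA2B, ADK and SLC29A1 lie lower in all 3 sgITPR3 libraries, ADA and ENTPD2 lie higher, and ENTPD1, P2RY2 and P2RX4 overlap.

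CD73 is found on endothelium and on fibroblasts as well as on carcinoma cells, so markers of those cells were read in the same libraries. Endothelium, fibroblasts and leukocytes of the host would be mouse cells, which were depleted, and reads were aligned to the human genome GRCh38. Few counts of these human genes therefore cannot show how many such cells were present. In bulk RNA, fewer cells of a type and less RNA per cell cannot be told apart. All 6 endothelial markers (PECAM1, VWF, CDH5, KDR, TEK and CLEC14A) had at most 10 counts in every library and summed to at most 0.670 CPM. Of 8 fibroblast markers, LUM was at 0 in every library, DCN had at most 5 counts and THY1 at most 3, and the sum was 6.03 to 6.62 CPM in sgCtrl and 8.76 to 10.9 CPM in sgITPR3, mostly from COL1A1 (5.61 ± 0.173 and 7.82 ± 0.885 CPM). The part of these cells in the NT5E level was not tested. Of the 8 leukocyte markers, PTPRC had 0 counts in 5 libraries and 7 in sgITPR3 replicate 1, and the sum was 11.7 to 13.9 CPM in sgCtrl and 12.9 to 18.7 CPM in sgITPR3.

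The genes around NT5E were read for their own levels, since NT5E was picked for its fall and its distance from them follows from that choice. Within 1 Mb on each side of its start, 5 other genes were tested, with log2 fold changes from -0.62 to 0.41 and a median of -0.20, against a median of 8.59e-04 over all tested genes. SNX14, which encodes a sorting nexin and starts 145 kb downstream, fell from 108 ± 0.720 to 87.5 ± 3.76 CPM (log2 fold change -0.31). It was called lower, as were 11.9% of all tested genes. The other 4 did not pass the edgeR test: SYNCRIP, an RNA-binding protein gene, SNHG5, a snoRNA host gene, TBX18, a T-box factor gene, and LINC01611. Within 2 Mb there were 12 tested genes with a median of 0.011 and a range of -0.62 to 1.28.

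**Figure D2:**
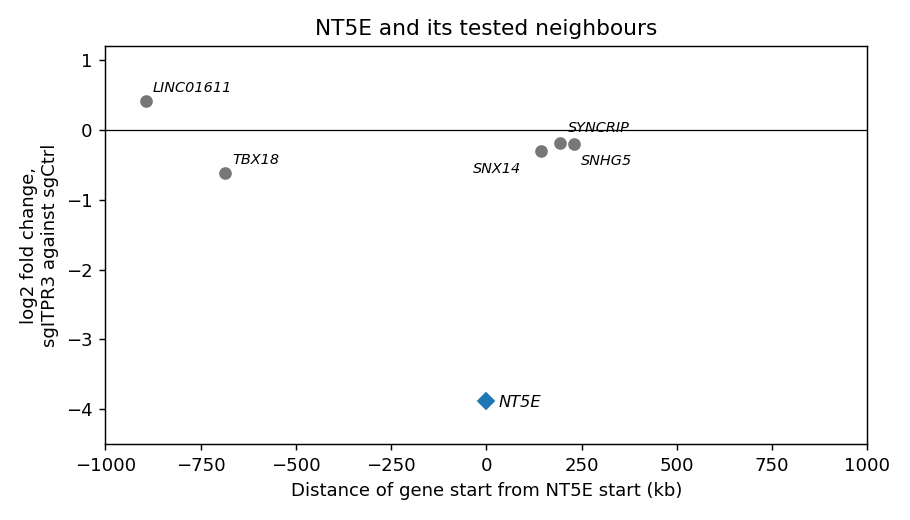
Log2 fold change of sgITPR3 against sgCtrl (vertical axis) for NT5E (diamond) and the 5 other tested genes (circles) whose start lies within 1 Mb of its own, by distance in kb along the plus strand. NT5E lies at -3.89 and the others between -0.62 and 0.41.

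The 5 genes whose pattern over the 6 libraries was most like that of NT5E were PLAT, KRT81, KRT75, SLIT3 and KRT6A, out of 10631 compared genes averaging 5 CPM or more. Likeness was the root mean square difference of log2(CPM + 0.5) after each gene was centred on its own mean. It was 0.38 for PLAT (tissue plasminogen activator), 0.42 for KRT81, 0.46 for KRT75, 0.48 for SLIT3 (a secreted guidance protein) and 0.54 for KRT6A. PLAT was at 15.0, 15.7 and 21.9 CPM under sgCtrl and at 1.29 to 1.73 CPM under sgITPR3. KRT81 was at 126.1, 85.5 and 110.8 CPM against 12.7, 11.7 and 14.2 CPM, and like NT5E it was lowest of the controls in sgCtrl replicate 2. KRT81 and KRT6A have close paralogs, so reads shared between copies make their counts uncertain. With a minimum of 1 CPM, the same 5 genes were nearest. A minimum of 20 CPM excludes PLAT and KRT6A by their level. The other 3 of the 5 then stayed among the nearest, and PAEP and NTSR1 took the places left.

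**Figure D3:**
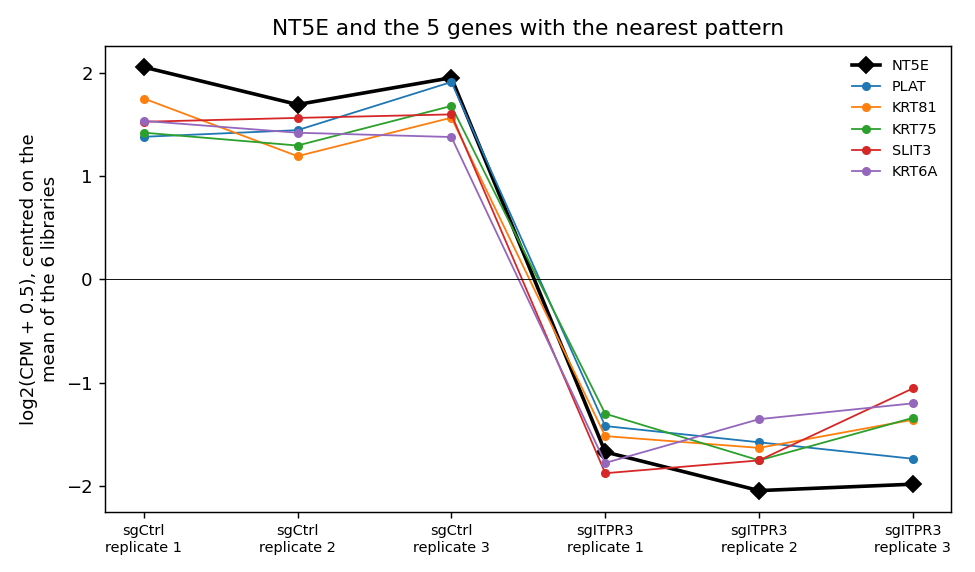
Centred log2(CPM + 0.5) by library for NT5E (black diamonds) and the 5 genes with the smallest root mean square difference from it (coloured circles). All 6 genes lie above 0 in the 3 sgCtrl libraries and below 0 in the 3 sgITPR3 libraries, which is how they were chosen.

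The sequence just before an annotated transcription start is shown for NT5E and for the 4 other genes whose level passed the test. Of the 4, 3 were lower and 1 was higher in sgITPR3. The sequences can thus be read side by side. Each is the 250 bases before a RefSeq gene start (GRCh38.p14), written 5′ to 3′ on the strand of the gene. RefSeq starts were found for 9 of the 10 genes, and SLC29A1 had 2, of which the one nearer the GENCODE gene start is printed. The start lay 8 bases from the nearest GENCODE transcript start for NT5E and ADA, 18 for ADORA1, 213 for ADORA2B and 15 for SLC29A1. NT5E, ADORA1, ADORA2B, SLC29A1 and ADA have 4, 8, 2, 19 and 7 annotated transcript starts, and which was used in these cells was not measured. The RefSeq start lay 499 bases from the GENCODE gene start for NT5E, 534 for ADA and 37072 for ADORA1. Their windows therefore lie within the gene spans given in the text, and those of ADORA2B and SLC29A1 lie partly within. Capitals mark matches, on either strand, to the GC box GGGCGG, the hypoxia response core ACGTG, the cAMP response element TGACGTCA and its short form TGACG, the AP-1 site TGANTCA and the TATA box TATAAA.
NT5E (chr6:85449833-85450082, plus strand): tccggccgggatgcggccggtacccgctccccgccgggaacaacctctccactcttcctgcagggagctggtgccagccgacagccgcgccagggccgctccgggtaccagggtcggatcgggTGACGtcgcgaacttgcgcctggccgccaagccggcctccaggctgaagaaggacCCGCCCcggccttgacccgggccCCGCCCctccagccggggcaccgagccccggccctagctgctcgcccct
ADORA1 (chr1:203127476-203127725, plus strand): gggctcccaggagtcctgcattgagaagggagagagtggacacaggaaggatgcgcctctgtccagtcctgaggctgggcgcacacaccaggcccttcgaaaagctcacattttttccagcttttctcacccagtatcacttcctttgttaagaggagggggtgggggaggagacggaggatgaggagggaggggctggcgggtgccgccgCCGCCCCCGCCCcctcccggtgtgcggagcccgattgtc
ADORA2B (chr17:15944880-15945129, plus strand): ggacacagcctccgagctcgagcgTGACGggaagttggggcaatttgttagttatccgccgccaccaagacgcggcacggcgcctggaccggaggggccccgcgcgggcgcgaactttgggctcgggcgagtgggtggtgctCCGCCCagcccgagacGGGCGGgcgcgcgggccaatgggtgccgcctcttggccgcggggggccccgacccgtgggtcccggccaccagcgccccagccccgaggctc
SLC29A1 (chr6:44219365-44219614, plus strand): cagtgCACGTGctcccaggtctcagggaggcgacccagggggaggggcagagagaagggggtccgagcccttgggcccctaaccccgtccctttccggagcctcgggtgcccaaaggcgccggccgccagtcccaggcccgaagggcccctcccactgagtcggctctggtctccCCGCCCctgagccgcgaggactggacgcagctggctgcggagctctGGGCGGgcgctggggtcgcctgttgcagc
ADA (chr20:44651700-44651949, minus strand): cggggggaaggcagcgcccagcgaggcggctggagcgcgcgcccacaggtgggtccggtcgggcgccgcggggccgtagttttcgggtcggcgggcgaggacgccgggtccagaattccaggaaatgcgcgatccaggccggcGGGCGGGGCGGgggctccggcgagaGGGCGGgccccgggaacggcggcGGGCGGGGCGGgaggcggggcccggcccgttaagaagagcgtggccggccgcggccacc
The short form lies within the full cAMP response element and was added to the search after the NT5E sequence was read. All 5 windows held GC boxes, 2 each for NT5E, ADORA1, ADORA2B and SLC29A1 and 5 for ADA. A GC box was present in 42.6% of 35116 RefSeq windows of the same length. In NT5E the GC boxes began 72 and 49 bases before the start, both on the reverse strand, and 1 short form began 127 bases before it. ADORA2B also had 1 short form, 226 bases before the start, and 21.2% of all windows had one. In the SLC29A1 window the hypoxia core was matched on both strands by a single palindrome, and 18.5% of windows had a match. None of the 5 windows held a TATA box, an AP-1 site or a full cAMP response element, which were in 10.7%, 6.57% and 1.65% of windows. Such matches are letters in a window and were not tested as binding sites.

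ENTPD1 and ENTPD2, enzymes upstream of CD73, did not pass the test. ENTPD1 (ENSG00000138185, chromosome 10, 95711779 to 95869695) encodes CD39 and was barely detected, at 9, 17 and 6 counts in the sgCtrl libraries and 21, 24 and 13 counts in the sgITPR3 libraries. In CPM these were 0.550 ± 0.269 and 0.849 ± 0.159, and the groups overlapped through sgCtrl replicate 2, the control with the highest ALB level (log2 difference 0.62 with SE 0.449, edgeR adjusted p = 0.350). The log2 fold change was 1.07 without that library (edgeR adjusted p = 0.145) and 0.036 with the ALB covariate (edgeR adjusted p = 0.980). The antisense gene ENTPD1-AS1 covers the same 3' end at 2.36 CPM in sgCtrl and 2.35 CPM in sgITPR3. The labels do not state whether counting used strand, so reads of ENTPD1 and ENTPD1-AS1 may be mixed. ENSG00000270099, annotated as protein-coding, and ENSG00000240527 also cover this 3' end, on the same strand as ENTPD1, and had 0 counts in every library. Reads shared with them may not have been counted for ENTPD1, so its counts may be too low. ENTPD2 (chromosome 9, 137048098 to 137054045, minus strand), an ecto-ATPase that stops largely at ADP, was at 6.29, 6.56 and 5.23 CPM in sgCtrl and 8.29, 7.20 and 6.60 CPM in sgITPR3. Each sgITPR3 library was above each sgCtrl library, though 6.60 and 6.56 CPM nearly met, and the difference did not pass (log2 difference 0.29 with SE 0.160, edgeR adjusted p = 0.214).

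Of the plasma membrane members of this enzyme family, the one with most tags was ENTPD8, which was not among the 10 genes. ENTPD8 was at 66.3 ± 10.6 CPM in sgCtrl and 60.3 ± 4.97 CPM in sgITPR3 (log2 fold change -0.14, edgeR adjusted p = 0.361). It made up 90.8% ± 1.63 of the summed counts of ENTPD1, ENTPD2, ENTPD3 and ENTPD8 in sgCtrl and 88.0% ± 1.59 in sgITPR3. ENTPD2 made up 8.35% ± 1.33 and 10.8% ± 1.304, and ENTPD1 0.736% ± 0.269 and 1.25% ± 0.302 (SD, n = 3). By the tags assigned to each gene, then, CD39 was the smallest of the 3 enzymes detected in all libraries. Its share may be too low, since other genes cover the 3' end of ENTPD1.

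Of the 4 adenosine receptor genes, ADORA1 and ADORA2B were detected, and both were called lower in sgITPR3. ADORA1 (chromosome 1, 203090654 to 203167405) encodes the A1 receptor, which couples to Gi and lowers cAMP. It was at 2.69, 2.49 and 3.58 CPM under sgCtrl and 1.43, 1.25 and 1.24 CPM under sgITPR3, from 50, 50 and 67 against 33, 31 and 24 counts. The groups did not overlap, and the level was 2.22-fold lower (log2 difference -1.15 with SE 0.269, edgeR adjusted p = 0.00654). With the ALB covariate ADORA1 was no longer called (log2 fold change -0.94, edgeR adjusted p = 0.0908). ADORA2B (chromosome 17, 15944917 to 15975746) encodes the A2B receptor, which couples to Gs, raises cAMP and needs higher adenosine than the other subtypes. It was at 11.4, 10.8 and 9.77 CPM in sgCtrl and 6.74, 7.12 and 6.29 CPM in sgITPR3, with no overlap and a mean 1.59-fold lower (log2 difference -0.67 with SE 0.134, edgeR adjusted p = 0.00249). ADORA2B remained called with the ALB covariate (log2 fold change -0.72, edgeR adjusted p = 0.0141) and in each fit that left out 1 library (-0.73 to -0.62). Its tested neighbours within 1 Mb numbered 18, with a median log2 fold change of 0.22. Of the 18, 6 rose and 0 fell, beside 11.6% higher and 11.9% lower over all genes tested. ADORA2A and ADORA3, the other adenosine receptor genes, had 0 counts in every library, which allows a level of up to 0.121 to 0.161 CPM by counting error alone. Overlap with other annotated genes was not read for ADORA2A and ADORA3. Reads shared with such genes may go uncounted, so the 0 counts need not mean that these receptors were not expressed.

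The genes that end the adenosine signal moved in both directions. SLC29A1 (chromosome 6, 44219505 to 44234151) encodes ENT1, the main carrier that lets adenosine cross the plasma membrane. It was at 61.4, 51.7 and 55.4 CPM under sgCtrl and 37.1, 40.1 and 40.9 CPM under sgITPR3. It was 1.43-fold lower, with no overlap (log2 difference -0.51 with SE 0.083, edgeR adjusted p = 4.73e-04). The fall was called in all 13 other analyses, with log2 fold changes from -0.57 to -0.41. SLC29A1 lies on the same chromosome as NT5E and ITPR3. Its 24 tested neighbours within 1 Mb had a median log2 fold change of -0.17. Of the 24, 2 were called lower and 0 higher, beside 11.9% and 11.6% over all genes tested. The related carrier SLC29A2 (ENT2) fell from 28.03 ± 2.9 to 20.3 ± 1.31 CPM (log2 difference -0.46 with SE 0.101, edgeR adjusted p = 0.00406), though not with the ALB covariate (log2 fold change -0.32, edgeR adjusted p = 0.110). SLC29A1 tags outnumbered those of SLC29A2 by 2.01 ± 0.0745 in sgCtrl and 1.94 ± 0.138 in sgITPR3.

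ADA, which deaminates adenosine to inosine, was the only one of the 10 genes called higher. ADA (chromosome 20, 44619522 to 44652233, minus strand) was at 4.03, 3.53 and 2.99 CPM in sgCtrl and 5.18, 4.86 and 6.91 CPM in sgITPR3. It rose with no overlap (log2 difference 0.68 with SE 0.203, edgeR adjusted p = 0.0264). The call ended without sgCtrl replicate 3 (log2 fold change 0.57, edgeR adjusted p = 0.0947), without sgITPR3 replicate 3 (0.51, edgeR adjusted p = 0.117) and with the ALB covariate (0.71, edgeR adjusted p = 0.101). The 3' end of ADA lies under PKIG, a protein kinase inhibitor gene on the opposite strand with 79.8 CPM in sgCtrl and 69.4 CPM in sgITPR3, and the same doubt about strand holds. ADK (chromosome 10, 74151185 to 74709303), the kinase that returns adenosine to AMP inside cells, was at 38.6, 37.8 and 43.5 CPM in sgCtrl and 32.3, 30.7 and 37.0 CPM in sgITPR3. Each sgITPR3 library was below each sgCtrl library, but the difference of -0.26 on the log2 scale (SE 0.092) did not pass (edgeR adjusted p = 0.0512). It did pass without a low-count filter (edgeR adjusted p = 0.0345), with the replicate number as a block (0.0280), without sgCtrl replicate 2 (0.0303) or sgITPR3 replicate 3 (0.0274), and by limma-voom (0.0443), and it did not with the ALB covariate (0.437).

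The nucleotide receptors among the 10 genes gave no call. P2RX4 (chromosome 12, 121209857 to 121234106) encodes an ATP-gated cation channel and was at 17.5, 13.5 and 13.1 CPM in sgCtrl and 16.3, 14.6 and 13.6 CPM in sgITPR3, with complete overlap (log2 difference 0.017 with SE 0.129, edgeR adjusted p = 0.941). Its sign turned in 3 fits that left out 1 library, with values from -0.059 to 0.15 over the 6 such fits. P2RY2 (chromosome 11, 73218298 to 73236352), a Gq-coupled receptor for ATP and UTP that acts through IP3, had 10, 0 and 8 counts in sgCtrl and 4, 4 and 12 in sgITPR3. It was too low for the test, and 2 sgCtrl libraries and 1 sgITPR3 library held most of its counts.

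Of the 9 genes other than NT5E, 8 could be tested, and 3 fell (ADORA1, ADORA2B and SLC29A1), 1 rose (ADA) and 4 did not pass. Over all genes tested 11.9% were called lower and 11.6% higher. Their median log2 fold change was -0.12, against 8.59e-04 over all genes tested. By the spread alone, 4 of the 8 lay lower in every sgITPR3 library and 2 lay higher, against 19.7% and 19.6% of all tested genes. With ALB as a covariate 2 calls were left, ADORA2B and SLC29A1. Without sgCtrl replicate 2, the control rich in ALB, 5 genes were called.

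The order of the 10 genes by level differed between the groups. In sgCtrl, NT5E led with 102 CPM on average, followed by SLC29A1 (56.1), ADK (40.0), P2RX4 (14.7), ADORA2B (10.7) and ENTPD2 (6.03), none of which overlapped its neighbour in the order. Next came ADA (3.52) and ADORA1 (2.92), then ENTPD1 (0.550) and P2RY2 (0.322 CPM), and within each of these pairs the libraries overlapped. In sgITPR3 the order was SLC29A1 (39.3), ADK (33.3), P2RX4 (14.8), ENTPD2 (7.36), NT5E (6.904), ADORA2B (6.72), ADA (5.65), ADORA1 (1.31), ENTPD1 (0.849) and P2RY2 (0.318 CPM). There NT5E overlapped ENTPD2, ADORA2B and ADA. For each ADA tag there were 28.1, 25.0 and 35.3 NT5E tags in the sgCtrl libraries and 1.57, 1.27 and 0.933 in the sgITPR3 libraries. For each ADK tag there were 2.56 ± 0.326 NT5E tags in sgCtrl and 0.209 ± 0.0392 in sgITPR3. These ratios rest on the fall of NT5E for which it was picked and are a description.

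A further 110 genes of the same biology were read in lists chosen by function, and 76 of them passed the low-count filter. Of the 76, 15 fell, 9 rose and 52 did not pass, with a median log2 fold change of -0.062. Over all tested genes 11.9% were called lower and 11.6% higher, which is the share to hold beside this count and those of the single lists. The count of 24 calls ranged from 11 (without sgITPR3 replicate 2) to 30 (without sgCtrl replicate 2), was 14 without sgITPR3 replicate 1 and was 8 with ALB as a covariate. Among 20 other ecto-enzymes, 12 were tested, 1 fell and 0 rose. The one that fell was ENTPD6, a nucleoside diphosphatase of the secretory pathway, from 26.02 ± 1.29 to 20.1 ± 0.359 CPM (log2 difference -0.37 with SE 0.089, edgeR adjusted p = 0.00744). ENPP2, the gene for autotaxin, and DPP4, the gene for the surface protein that binds ADA in humans, had, like ALB, their highest control value in sgCtrl replicate 2. ENPP2 had 9, 95 and 18 counts in the sgCtrl libraries and 73, 57 and 32 in the sgITPR3 libraries, and DPP4 had 4, 28 and 1 against 16, 17 and 10. Neither passed (edgeR adjusted p = 0.838 and 0.893), but without sgCtrl replicate 2 both were called higher, with log2 fold changes of 1.71 and 2.19 (edgeR adjusted p = 0.00439 and 0.0324). Given the ALB level as a covariate they were -0.86 and -0.96 and did not pass (edgeR adjusted p = 0.120 and 0.283).

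**Figure D4:**
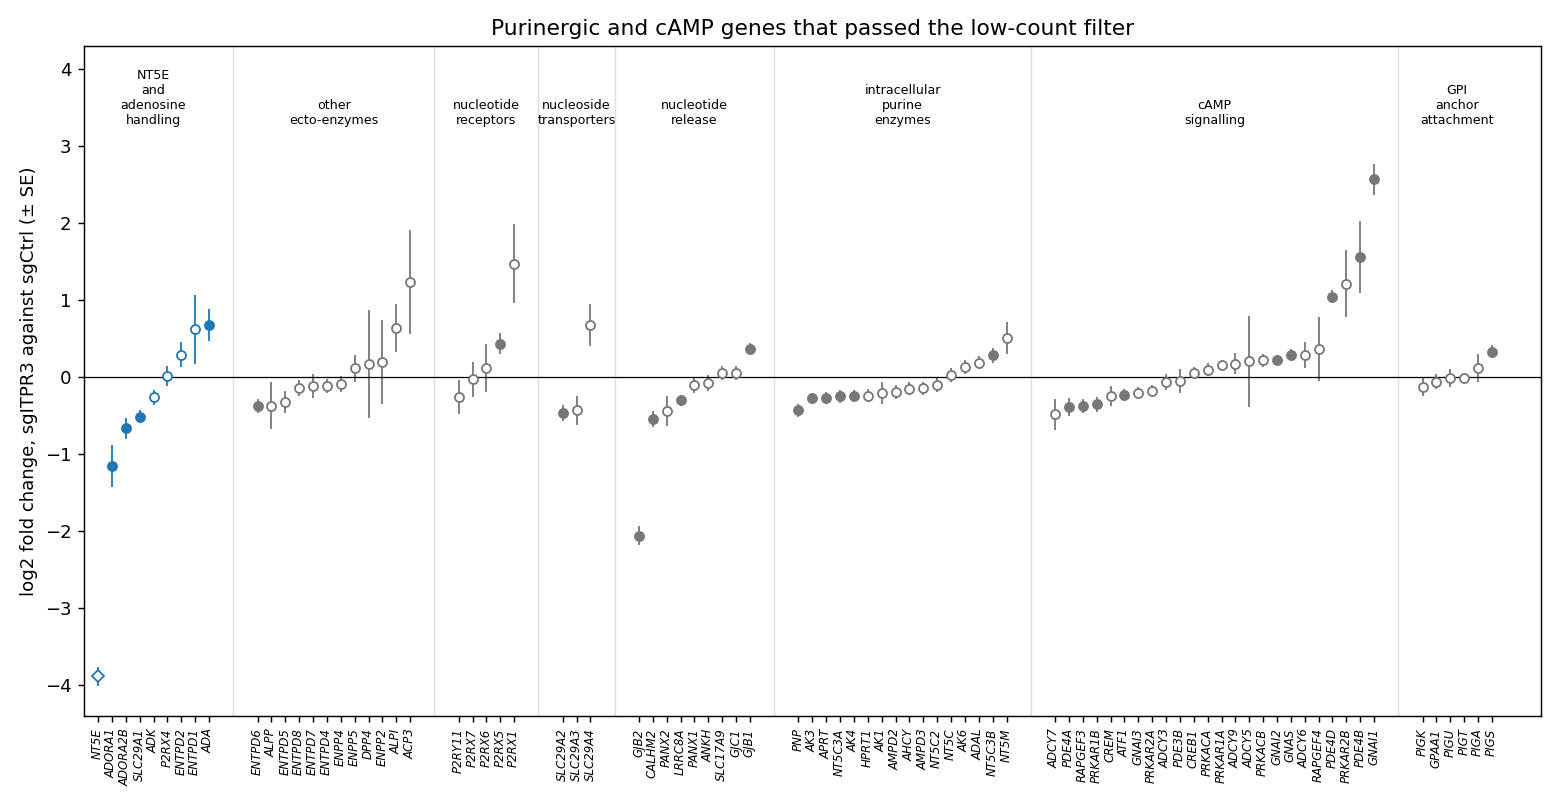
Log2 fold change ± SE of sgITPR3 against sgCtrl for tested genes among the 10 (blue) and in 7 functional lists (grey), ordered by value within each list. Filled circles passed the edgeR test at an adjusted p under 0.05, open circles did not, and the diamond is NT5E, shown without a test. GJB2 at -2.06 and GNAI1 at 2.57 are the farthest from 0 in the grey lists.

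Of 13 other nucleotide receptor genes 5 were tested, and 1 rose. This was P2RX5, an ATP-gated channel gene, from 6.35 ± 0.515 to 8.60 ± 0.461 CPM (log2 fold change 0.44, edgeR adjusted p = 0.0383). The call was lost in all 6 fits that left out a library (edgeR adjusted p from 0.0522 to 0.121) and with DESeq2 (adjusted p = 0.0617). P2RX7, the receptor best known for inflammasome activation, was at 2.93 ± 0.267 and 2.88 ± 0.554 CPM. P2RY6, P2RY12, P2RY13, P2RX2 and P2RX3 had 0 counts in every library. Of 6 other nucleoside transporters 3 were tested, of which SLC29A2 fell.

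Among 12 genes of channels and carriers through which nucleotides or pyrophosphate can leave cells, 9 were tested, 3 fell and 1 rose, beside 11.9% lower and 11.6% higher over all genes. GJB2, which encodes connexin 26, was at 55.1, 39.4 and 48.1 CPM in sgCtrl and 11.6, 10.1 and 12.4 CPM in sgITPR3. It fell 4.18-fold (log2 difference -2.06 with SE 0.124, edgeR adjusted p = 4.26e-08) and was called in all 13 other analyses. CALHM2, a channel of the calcium homeostasis modulator family, fell from 17.1 ± 0.515 to 11.8 ± 0.155 CPM, and LRRC8A, the obligate subunit of volume-regulated anion channels, from 70.0 ± 4.61 to 56.8 ± 1.304 CPM. GJB1, encoding connexin 32, rose from 142 ± 14.9 to 183 ± 6.8 CPM, which was not called with the ALB covariate (edgeR adjusted p = 0.0610). PANX1, the pannexin through which ATP is released, was at 22.0 ± 1.69 and 20.4 ± 2.33 CPM, and SLC17A9, the vesicular nucleotide carrier, at 114 ± 10.7 and 118 ± 12.8 CPM, and neither passed.

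Inside the cell, 17 of 21 purine and other nucleotide enzymes were tested. Of the 17, 6 fell, 1 rose and 10 did not pass, beside 11.9% lower and 11.6% higher over all genes. PNP, which cleaves inosine made by ADA, fell from 42.05 ± 3.87 to 31.1 ± 1.3 CPM (log2 difference -0.43 with SE 0.087, edgeR adjusted p = 0.00249) and was not called with the ALB covariate (edgeR adjusted p = 0.0694). Others that fell were the adenylate kinase family genes AK3 and AK4, APRT, which salvages adenine, and the nucleotidase NT5C3A, with log2 fold changes from -0.27 for AK3 to -0.24 for AK4. Each of these 4 calls was lost in 3 to 5 of the 6 fits that left out a library and with ALB as a covariate. The gene that rose, NT5C3B, did so by 0.28 on the log2 scale (edgeR adjusted p = 0.0483, and 0.147 given the ALB level). AK5 had 8, 24 and 6 counts in sgCtrl and 0 in each sgITPR3 library and was too low for the test. It is named here after its counts were seen.

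Downstream of the adenosine receptors, 24 of 30 genes of cAMP signalling were tested, and 5 rose, 4 fell and 15 did not pass, beside 11.6% higher and 11.9% lower over all genes. GNAI1, which encodes an inhibitory G protein alpha subunit to which the A1 receptor couples, was at 1.88, 1.29 and 2.40 CPM under sgCtrl and 11.4, 10.8 and 10.8 CPM under sgITPR3. It rose 5.93-fold (log2 difference 2.57 with SE 0.198, edgeR adjusted p = 4.59e-07). GNAI2, another inhibitory subunit gene, rose from 311 ± 7.14 to 363 ± 13.6 CPM, and GNAS, the stimulatory subunit, from 1136 ± 97.1 to 1386 ± 37 CPM. GNAI3, a further inhibitory subunit gene, lay lower in sgITPR3 without overlap but did not pass (log2 fold change -0.20, edgeR adjusted p = 0.0545). PDE4D, a phosphodiesterase that degrades cAMP, was at 67.6, 61.7 and 78.6 CPM in sgCtrl and 140.4, 137.7 and 150.7 CPM in sgITPR3. It rose 2.06-fold (log2 difference 1.04 with SE 0.086, edgeR adjusted p = 8.53e-07), and both PDE4D and GNAI1 were called in all 13 other analyses. PDE4A, of the same family, was called lower (log2 fold change -0.39, edgeR adjusted p = 0.0256). PDE4B was called higher, though the groups overlapped (1.56, edgeR adjusted p = 0.0253). Neither was called with the ALB covariate (edgeR adjusted p = 0.175 and 0.313). RAPGEF3, which encodes the cAMP sensor EPAC1, fell from 35.7 ± 0.228 to 27.4 ± 2.82 CPM, and PRKAR1B, a regulatory subunit of protein kinase A, from 45.6 ± 3.16 to 35.6 ± 3.92 CPM. Without sgITPR3 replicate 2 the calls of RAPGEF3 (edgeR adjusted p = 0.0555), PRKAR1B (0.0778), GNAS (0.0506) and GNAI2 (0.126) ended. The call of GNAS also ended without sgITPR3 replicate 1 (0.0548), and that of GNAI2 without sgCtrl replicate 1 (0.0648). With ALB as a covariate PRKAR1B (0.162), GNAS (0.116) and GNAI2 (0.0803) were not called. CREB1, the transcription factor activated by protein kinase A, was at 47.3 ± 1.83 and 49.2 ± 2.4 CPM and did not pass.

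CD73 is held at the surface by a glycosylphosphatidylinositol (GPI) anchor, and the 5 subunit genes of the transamidase that attaches the anchor were read with PIGA, which acts in its synthesis. All 6 were tested, and 1 rose. This was PIGS, a transamidase subunit gene, from 32.2 ± 2.67 to 40.5 ± 2.88 CPM (log2 fold change 0.33, edgeR adjusted p = 0.0149), a call that ended without sgITPR3 replicate 1 (edgeR adjusted p = 0.0847) and with the ALB covariate (edgeR adjusted p = 0.0501). The other 5 (PIGA, PIGK, PIGT, PIGU and GPAA1) had log2 fold changes from -0.13 to 0.12.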

How the data were processed

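RNA from 3 sgCtrl and 3 sgITPR3 libraries was made into sequencing libraries with the Lexogen 3' FWD kit, per the labels' protocols. The authors deposited raw counts per gene. Per the submitters' processing notes, reads were aligned to GRCh38 with STAR 2.6.0a and counted with featureCounts 1.6.3, and DESeq2 was used. Annotation, strand setting and handling of mouse reads: not given in the sources used here.

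Symbols and positions came from GENCODE 29 and a table of current names. Counts were analysed with edgeR 4.0.16 in R 4.3.3: filterByExpr (minimum count 10), TMM scaling, the quasi-likelihood F test without covariates, and Benjamini-Hochberg adjustment over all 15804 genes tested. The SE is the absolute log2 fold change over the square root of F. The procedure was tested on simulated data. Alternatives changed the scaling (RLE), the filter (none, or 1 CPM in 3 libraries) or the tool (DESeq2 1.42.0, limma-voom with limma 3.58.1), dropped each library in turn, or added a term (replicate number, ALB level). The members, lists, alternatives and the rule for named genes were chosen with earlier results of these data known. Named were ITPR3, ALB, the 10 genes, up to 6 called genes per list by p and the 5 genes most like NT5E. NT5C3B, PDE4A, PDE4B, list genes that were not called or are given for their counts, single marker genes and neighbours of NT5E were named after their values were seen. Libraries of a group differed by a chi-square per degree of freedom of 6.07 to 11.4, so no library repeats another. Intervals and floors cover counting error only. A called gene of the lists is not reported here, in text or plots, though list counts include it.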

Additional observations from a re-analysis of the deposited data

How the results depend on the processing

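The 13 alternatives were 6 changes of scaling, filter, block or tool, 1 covariate and 6 fits that left out a library. The count of all genes called was 3717 and lay between 2331 (without sgITPR3 replicate 2) and 4261 (without sgCtrl replicate 2) when a library was left out, and was 1982 with ALB as a covariate. Of the 9 genes other than NT5E, 4 were called, 3 to 5 when a library was left out, and 2 with ALB as a covariate. Of the further list genes 24 were called, 11 to 30 when a library was left out and 8 with ALB as a covariate. That covariate uses 1 more of the few degrees of freedom, and the ALB level is partly shared with the groups, so they cannot be fully told apart. P2RX4 changed sign when a library was left out (-0.059 to 0.15 over the 6 fits). The median log2 fold change of the neighbours of NT5E was -0.20 within 1 Mb and 0.011 within 2 Mb. No scaling or filter moved the median over shared genes by more than 0.00925 on the log2 scale. Same-numbered libraries deviated together with correlations of -0.050, 0.056 and 0.13, so the numbers were not taken as pairs. With the replicate number as a block 3877 genes, 5 of the 9 genes and 25 list genes were called. Genes with few counts, ENTPD1 and P2RY2 above all, are limited by depth, and a floor of 3 counts is 0.121 to 0.161 CPM.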
